A study of Mus musculus with 10 samples.

Results

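The collagen chain genes of the mouse were followed in the secondary palate at E14.5, the stage at which the palatal shelves fuse. A gene was included when the array's annotation gave a probe set exactly 1 symbol made of Col, a type number, the letter a and a chain number. This gave 42 genes, measured by 82 probe sets, among the 18194 genes on the arrays. Each gene was read from its probe set with the highest mean. The mutant group had 5 arrays from embryos of genotype Tgfbr2fl/fl;Wnt1-Cre, in which the Wnt1 driver directs Cre to the neural crest and its derivatives, so that Tgfbr2, which encodes the TGF-beta type II receptor, is deleted there. The control group had 5 arrays from Tgfbr2fl/fl embryos with no Cre in the genotype label, which the titles call wildtype. Both groups carried the floxed alleles, had the strain label C57B6, and had no recorded sex. Epithelium, endothelium and skeletal muscle cells do not come from the neural crest and keep the receptor in this model. Whether each numbered sample was a different embryo is not stated in the labels, and p-values therefore cover only the variation among these samples.

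Collagens are trimers of alpha chains wound into a triple helix, and the chains fall into classes by the structure they build. Fibrillar chains form the banded fibres of mesenchyme, bone and cartilage, collagen IV chains form the sheet of basement membranes, and collagen VI chains form beaded filaments around cells. FACIT chains sit on the surface of fibrils, short chain collagens form hexagonal nets, multiplexins lie in basement membrane zones, and transmembrane chains anchor cells. TGF-beta is a textbook inducer of collagen genes in mesenchymal cells, and crest-derived mesenchyme forms most of the palatal shelf.

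Few collagen chains differed between mutant and control palates. By limma, with Benjamini-Hochberg adjustment over all 18194 genes and a threshold of 0.05, 1 chain rose (Col5a3), 3 fell (Col8a2, Col26a1 and Col9a2) and 38 were not called. Over all genes, 2.9% were called higher and 5.36% lower, so that 8.26% were called in either direction, and the share of collagen chains called is close to that background. Of the called genes, 35.1% were higher, and 73.0% were higher when each array was centred on its median, which moved the median of all genes to 0.08 on the log2 scale. For the same 4 chains the mutant and control arrays did not overlap, a separation seen in 6.75% of all genes, with mutants above controls in 1.82% and below them in 4.93%. The changes were of 1.25-fold to 1.54-fold. Of all 42 chains, 33 (78.6%) had log2 fold changes above 0, as did 46.2% of all genes; the medians were 0.13 and 0.00. Without control replicate 1, 27 chains (64.3%) and 49.3% of all genes did, and the collagen median was 0.07.

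The sequences just upstream of 3 of the called genes are shown with that of Col1a2, a fibrillar chain of the mesenchyme that was not called and whose promoter is known to respond to TGF-beta. They come from RefSeq, which had windows for 33 of the 42 genes, and run 5′ to 3′ on the strand of the gene up to the base before its annotated start. Capitals mark the SMAD box CAGAC, which reads as GTCTG on the other strand, and the GC box GGGCGG, which reads as CCGCCC there, which did not overlap each other.
Col5a3, GRCm38.p6, chr9:20815118-20815317, minus strand: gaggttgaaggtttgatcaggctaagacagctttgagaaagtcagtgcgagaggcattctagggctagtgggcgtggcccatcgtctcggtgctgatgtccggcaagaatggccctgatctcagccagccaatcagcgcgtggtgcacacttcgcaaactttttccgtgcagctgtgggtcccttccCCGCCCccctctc
Col8a2, GRCm38.p6, chr4:126286544-126286793, plus strand: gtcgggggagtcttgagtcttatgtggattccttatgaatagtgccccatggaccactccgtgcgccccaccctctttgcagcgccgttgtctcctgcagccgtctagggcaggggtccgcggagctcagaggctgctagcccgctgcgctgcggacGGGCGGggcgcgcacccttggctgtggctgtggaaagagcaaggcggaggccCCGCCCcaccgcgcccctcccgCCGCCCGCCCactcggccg
Col9a2, GRCm38.p6, chr4:121039316-121039565, plus strand: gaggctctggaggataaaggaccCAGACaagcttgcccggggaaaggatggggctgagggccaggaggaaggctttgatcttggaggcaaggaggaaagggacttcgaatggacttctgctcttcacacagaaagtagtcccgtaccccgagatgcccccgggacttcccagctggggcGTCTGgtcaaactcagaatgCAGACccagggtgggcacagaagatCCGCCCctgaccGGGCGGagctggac
Col1a2, GRCm38.p6, chr6:4505368-4505617, plus strand: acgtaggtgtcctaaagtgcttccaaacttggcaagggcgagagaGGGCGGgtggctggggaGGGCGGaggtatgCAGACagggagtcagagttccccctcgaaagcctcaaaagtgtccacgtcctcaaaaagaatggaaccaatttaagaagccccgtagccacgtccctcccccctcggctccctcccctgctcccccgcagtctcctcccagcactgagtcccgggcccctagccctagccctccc
Col9a2 had 3 SMAD boxes and Col1a2 had 1, while none was in the Col5a3 and Col8a2 windows. The Col5a3 window was shorter, with 200 bases against 250 in the others. Every window shown held a GC box, and Col8a2 held 4, of which a pair overlap. In 32851 windows of 250 bases upstream of RefSeq starts, 42.2% held a SMAD box and 32.7% a GC box. Of 36 such windows of collagen chains, 41.7% held a SMAD box and 58.3% a GC box. A match describes only the letters of the window.

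Control replicate 1 was the array least like the others and affects much of what follows. Pearson's r over all genes was 0.985 to 0.989 for pairs with this array and 0.989 to 0.996 for pairs without it. It was the lowest of the 10 arrays for 24 of the 42 chains (57.1%), against 13.6% of all genes, and for all 11 fibrillar chains. It was the highest for 2 of the 42 chains (4.76%), against 23.1% of all genes. No other array was lowest for more than 2 of the 42 chains. In the same array the median deviation of 7 osteoblast markers was -0.82 and that of 11 epithelial markers 0.38 on the log2 scale, whereas the last 4 controls ranged from -0.19 to 0.10 and from -0.24 to 0.01. The part of these marker shifts in the collagen values of that array was not tested, and the called chains and the classes are given with and without it. Without it, 4 chains were higher (Col5a3, Col4a5, Col17a1 and Col23a1) and 3 lower (Col8a2, Col26a1 and Col9a2), while 35 were not called. The background without it was 3.8% of genes higher and 6.08% lower, 9.88% in all. The 3 added chains were all higher in mutants.

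A pair of checks of the samples bears on all values. Tgfbr2 read 10.7, 10.7, 10.8, 10.7 and 10.8 in mutants and 10.5, 10.8, 10.7, 10.6 and 10.7 in controls, and since the labels do not place its probe set relative to the deleted part, these values do not test the deletion. Markers of palate mesenchyme were present, with array medians of 10.05 to 10.50 for 12 genes. The Y-linked gene Eif2s3y read 9.0 to 9.3 in mutant replicates 1 to 4 and control replicates 1 and 4, and 3.2 to 5.1 in the other 4 arrays, so the groups were not balanced for it. With Eif2s3y as a covariate, Col5a3, Col8a2 and Col26a1 kept their calls and Col9a2 lost its own. The tissue was measured in bulk, so fewer cells of a type and less RNA per cell cannot be told apart.

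Col5a3 was the one chain that rose. It encodes the alpha 3 chain of collagen V, a minor fibrillar collagen that is copolymerised with collagen I and regulates fibril diameter. Its log2 values were 6.8, 6.7, 6.7, 6.8 and 6.9 in mutant replicates 1 to 5 and 5.9, 6.3, 6.1, 6.3 and 6.2 in the controls. Every mutant array lay above every control array. The increase was 1.54-fold (6.78 ± 0.08 against 6.16 ± 0.17, SD, n = 5 each), or 0.62 on the log2 scale (95% confidence interval 0.44 to 0.80, limma adjusted p = 0.00191), and 1.47-fold without control replicate 1 (adjusted p = 0.00172). A second Col5a3 probe set, with a mean of 3.82, gave a log2 fold change of 0.00. The call was made in all 17 alternatives that tested the gene, which was not among the brighter 60% of genes.

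The other collagen V chains are the common partners in the trimer. Col5a1 read 11.3, 11.2, 11.4, 11.4 and 11.4 in mutants and 10.4, 11.3, 11.4, 11.3 and 11.3 in controls. Col5a2 read 13.0, 12.8, 12.9, 13.0 and 12.9 in mutants and 12.3, 12.9, 12.9, 12.8 and 12.8 in controls. Apart from control replicate 1, the groups of both genes overlapped, and their log2 fold changes without it were 0.02 (95% interval -0.11 to 0.14) and 0.07 (-0.06 to 0.20). Within each array, the log2 difference of Col5a2 from Col5a3 was 6.0 to 6.2 in mutants and 6.4 to 6.8 in controls, a shift of -0.44 (exact two-sided permutation p = 0.00794, the smallest that 5 against 5 allow; 0.270 adjusted over the 34 pairs of chains of the same collagen type). Since Col5a3 alone already separated the groups, the separation of this difference is not independent of that call. Of the 34 pairs, 4 had an unadjusted exact permutation p under 0.05. With 5 arrays a group, a single fully separated pair cannot pass the adjustment, so the adjusted values say nothing either way.

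**Figure D1:**
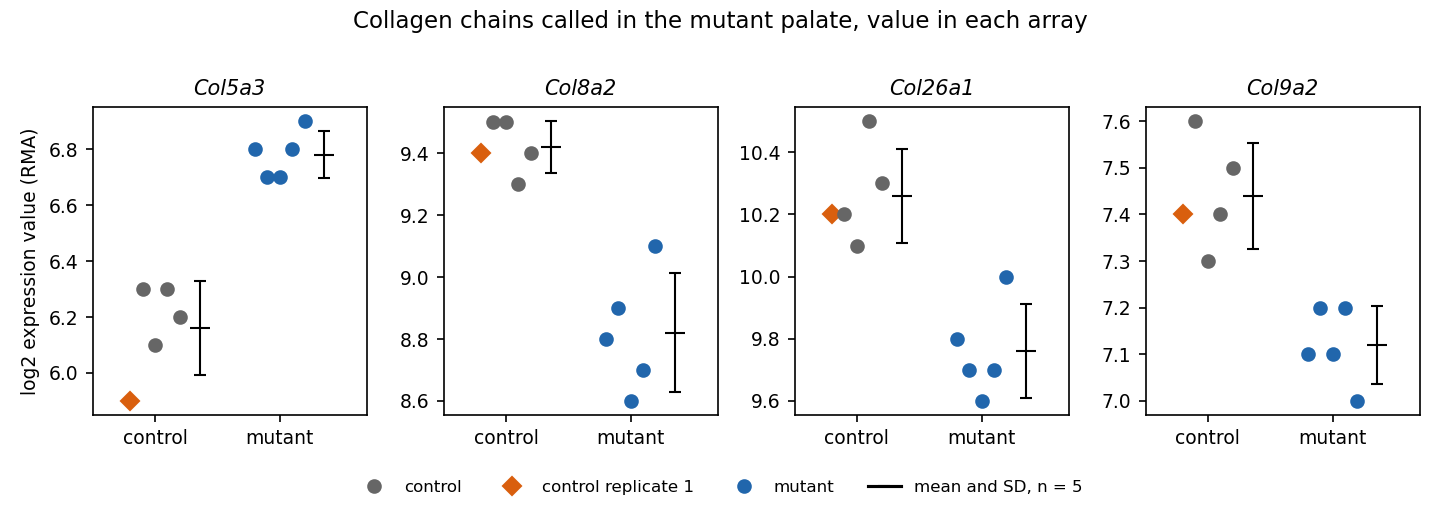
Log2 expression value of the 4 called collagen chains in each array, with controls on the left and mutants on the right of each panel; the bar gives the mean and SD of 5 arrays, and control replicate 1 is a diamond. All mutant points of Col5a3 (6.7 to 6.9) lie above the controls (5.9 to 6.3), and those of Col8a2, Col26a1 and Col9a2 lie below them.

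The other fibrillar chains were not called with or without control replicate 1. Of 11 fibrillar genes, 10 had a positive log2 fold change over 10 arrays with a median of 0.20, and 8 had a positive one without control replicate 1 with a median of 0.07; the median over all genes was 0.00 in both. The class median deviation of control replicate 1 was -0.59, while the last 4 controls lay between 0.00 and 0.03 and the mutants between -0.03 and 0.17. The difference between the groups in this class was thus smaller without 1 control array.

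Collagen I, the main protein of mesenchymal and bone matrix, is built from Col1a1 and Col1a2. Col1a1 read 13.4, 13.4, 13.1, 13.4 and 13.6 in mutants and 12.4, 13.2, 13.1, 13.2 and 13.2 in controls. Col1a2 read 14.2, 14.1, 14.3, 14.2 and 14.2 in mutants and 13.6, 14.1, 14.1, 14.1 and 14.1 in controls. On the brightest probe sets, mutants overlapped the last 4 controls for both chains, and control replicate 1 was below all. Without it the log2 fold changes were 0.21 for Col1a1 (95% interval 0.01 to 0.40, limma adjusted p = 0.158) and 0.10 for Col1a2 (-0.01 to 0.21, adjusted p = 0.240). A second Col1a1 probe set gave 0.32 over 10 arrays (limma adjusted p over all probe sets 0.0590) and 0.29 without control replicate 1. On it control replicate 1 read 11.4, as did control replicates 2 and 3. The other Col1a2 probe sets gave 0.34 and 0.48 over 10 arrays, or 0.185 and 0.065 without control replicate 1. The 14.3 of Col1a2 in mutant replicate 3 is the highest value on the arrays. Col3a1, the chain of collagen III, which is mixed into the same fibrils, read 13.8 to 14 in mutants and 13.5 to 13.9 in controls, with a log2 fold change of 0.12 (-0.05 to 0.29), or 0.05 without control replicate 1. A second Col3a1 probe set gave 0.36 over 10 arrays (limma adjusted p over all probe sets 0.149) and 0.215 without control replicate 1. Col3a1 neighbours Col5a2 on chromosome 1, whose log2 fold change was 0.18.

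Chains of cartilage fibrils overlapped between the groups. Col2a1, the main collagen of cartilage, read 10, 9.9, 10, 10.1 and 10.2 in mutants and 9.3, 10.2, 10.2, 10.5 and 10.1 in controls. Its log2 fold change was -0.02 with control replicate 1 and -0.21 without it (adjusted p = 0.155), and it was positive at 0.03 after repeated quantile normalization, at 0.06 after centring on array medians and at 0.11 with Eif2s3y as a covariate. Col11a1, which nucleates cartilage fibrils, read 10.8 to 11.1 in mutants and 10.4 to 11.1 in controls. Col11a2, its partner, read 8.3, 7.8, 7.9, 8.3 and 8.1 in mutants and 6.7, 8.2, 7.6, 7.6 and 7.7 in controls, with a log2 fold change of 0.52 (adjusted p = 0.167) that became 0.31 without control replicate 1. The fibrillar chains Col24a1 and Col27a1 had log2 fold changes of 0.50 and 0.10, or 0.30 and -0.04 without that array.

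**Figure D2:**
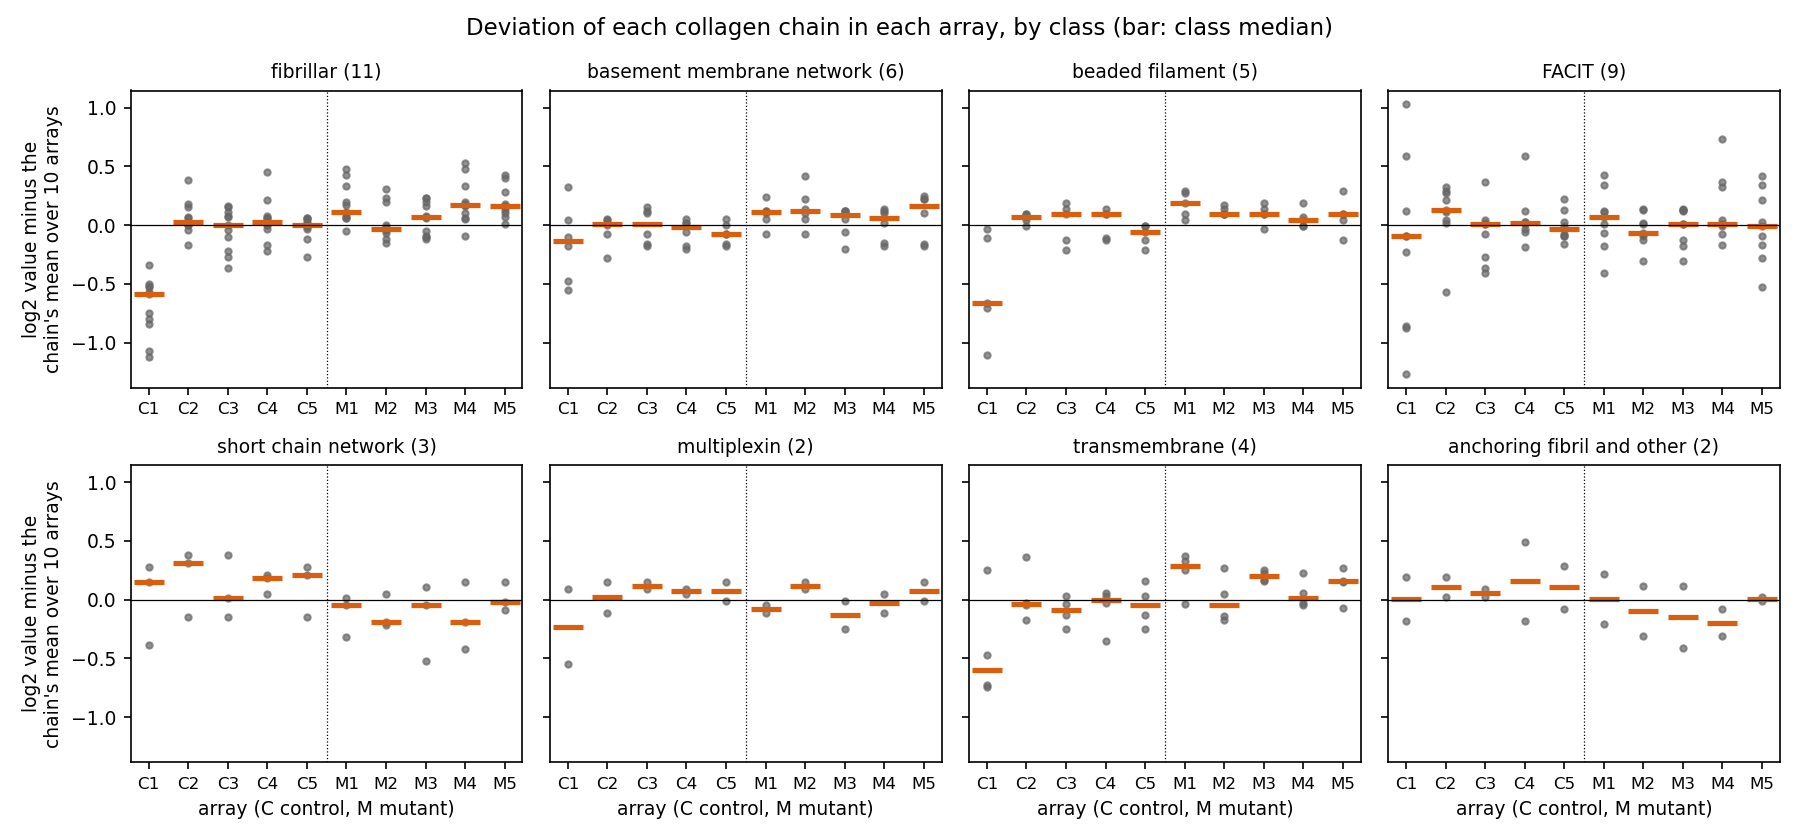
Log2 value of each chain minus its mean over the 10 arrays (points), by class, in control (C) and mutant (M) replicates 1 to 5; the bar is the class median. Control replicate 1 is low in the fibrillar class (-0.59), the beaded filament class (-0.66) and the transmembrane class (-0.60), whereas its short chain median (0.15) lies within the range of the other controls.

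In the FACIT class 1 chain was called. Of 9 genes, 5 were above and 4 below the controls on average, and the median log2 fold change was 0.02. Col9a2, one of the chains of collagen IX, which coats cartilage fibrils, read 7.1, 7.2, 7.1, 7.2 and 7.0 in mutants and 7.4, 7.6, 7.3, 7.4 and 7.5 in controls. All mutant arrays lay below all controls, by a narrow margin. It fell by 0.32 on the log2 scale, a 1.25-fold decrease (7.12 ± 0.08 against 7.44 ± 0.11; limma adjusted p = 0.0189), and by 0.33 without control replicate 1 (adjusted p = 0.0195). The call was lost without mutant replicate 3 (adjusted p = 0.0504) and also with centring, with the replicate number as a block and with Eif2s3y as a covariate.

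The other collagen IX chains were more variable. Col9a1 read 7.8, 7.9, 7.9, 8.2 and 8.2 in mutants and 8.8, 8.5, 7.8, 8.8 and 8.2 in controls, and of the 18 alternatives was called lower only without control replicate 3 (adjusted p = 0.0451). Its log2 fold change was -0.42, whereas a second Col9a1 probe set, with a mean of 7.56, gave 0.08, or 0.05 without control replicate 1. Col9a3 read 7.4, 7.4, 7.6, 7.3 and 7.5 in mutants and 8.5, 6.9, 7.1, 7.5 and 7.5 in controls. Control replicate 1 was here the highest array, and the log2 fold change went from -0.06 to 0.19 without it. Most cartilage markers were dim: 8 of 14 had means under 6.5, the highest array median. None of the 14 was called lower, although 6 had a negative log2 fold change, and Chad, which encodes the matrix protein chondroadherin, rose by 0.34 (adjusted p = 0.0280). The shares over all genes were 2.9% higher and 5.36% lower. The array median of the 14 was -0.08 to 0.12 in mutants and -0.04 to 0.17 in controls, and the part of cartilage content in the collagen IX values was not tested.

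No FACIT chain of soft tissue was called over 10 arrays. Col12a1 and Col14a1 bind collagen I fibrils in fascia and tendon, and Col16a1 is found in fibroblast and smooth muscle matrix. Col16a1 read 11, 10.8, 10.8, 10.7 and 11 in mutants and 9.8, 10.7, 10.7, 10.6 and 10.5 in controls, with a log2 fold change of 0.40 (adjusted p = 0.132), or 0.24 without control replicate 1 (adjusted p = 0.0804). It was called with Eif2s3y as a covariate. Col12a1 gave 0.40 and 0.23 in the same order, and Col14a1 gave 0.06 and 0.05. Col22a1, a chain of the junction between muscle and tendon, read 9.4, 9.1, 9.1, 9.7 and 8.8 in mutants and 7.7, 9.1, 8.7, 9.0 and 9.1 in controls, and was not called (0.50, adjusted p = 0.250; 0.25 without control replicate 1). Col20a1 gave 0.02, and its other probe sets, with means of 6.23, 6.07 and 4.30, gave 0.22, 0.18 and 0.00 over 10 arrays. Col19a1, which neighbours Col9a1 on chromosome 1, gave -0.14 beside -0.42 for Col9a1.

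Col8a2 fell most. Collagen VIII is a short chain collagen of vessel walls, the cornea and embryonic mesenchyme, and its chains are Col8a1 and Col8a2. Col8a2 read 8.8, 8.9, 8.6, 8.7 and 9.1 in mutants and 9.4, 9.5, 9.5, 9.3 and 9.4 in controls, so every mutant array was lower. It fell by 0.60 on the log2 scale, 1.52-fold (8.82 ± 0.19 against 9.42 ± 0.08; 95% interval -0.80 to -0.40; limma adjusted p = 0.00336), and by 0.61 without control replicate 1. The call was made in all 18 alternatives.

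Col8a1 was not called. It read 11.3, 11.1, 11.4, 11.1 and 11.2 in mutants and 10.9, 11.6, 11.3, 11.5 and 11.5 in controls. Control replicate 1 was the lowest array, and the other controls overlapped the mutants between 11.3 and 11.4; the log2 fold changes were -0.14 (limma adjusted p = 0.512) and, without that array, -0.26 (0.0728). The other Col8a1 probe sets each gave -0.36 over 10 arrays (limma adjusted p over all probe sets 0.0923 and 0.226), or -0.44 and -0.54 without control replicate 1, and on both every mutant array lay below the last 4 controls. The shift of Col8a1 relative to Col8a2 was 0.46 (exact two-sided permutation p = 0.0556, 0.378 adjusted over 34 pairs). The third gene of the class, Col10a1 of hypertrophic cartilage, read 4.7 to 5.0 in all arrays, below the array medians. Among 10 endothelial markers 1 was called lower (2 without control replicate 1), Cldn5, which encodes a tight junction protein (log2 fold change -0.54, adjusted p = 0.0112). The shares called lower over all genes were 5.36%, and 6.08% without control replicate 1. The medians of the 10 markers were -0.12 to 0.09 in mutants and -0.26 to 0.15 in controls, and their part in the Col8a2 values was not tested.

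Col26a1, an atypical collagen with an EMI domain, was the remaining decrease. Its values were 9.8, 9.7, 9.6, 9.7 and 10 in mutants and 10.2, 10.2, 10.1, 10.5 and 10.3 in controls. The groups did not overlap, and the nearest values were 10 and 10.1. It fell by 0.50 on the log2 scale, 1.41-fold (9.76 ± 0.15 against 10.26 ± 0.15; limma adjusted p = 0.00907), and by 0.52 without control replicate 1. A dimmer second probe set gave -0.16, and the mean of both was not called (adjusted p = 0.123). Col7a1, whose collagen VII forms the anchoring fibrils under stratified epithelium, read 8.6 to 8.9 in mutants and 8.5 to 8.7 in controls (0.16, adjusted p = 0.192; 0.14 without control replicate 1).

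**Figure D3:**
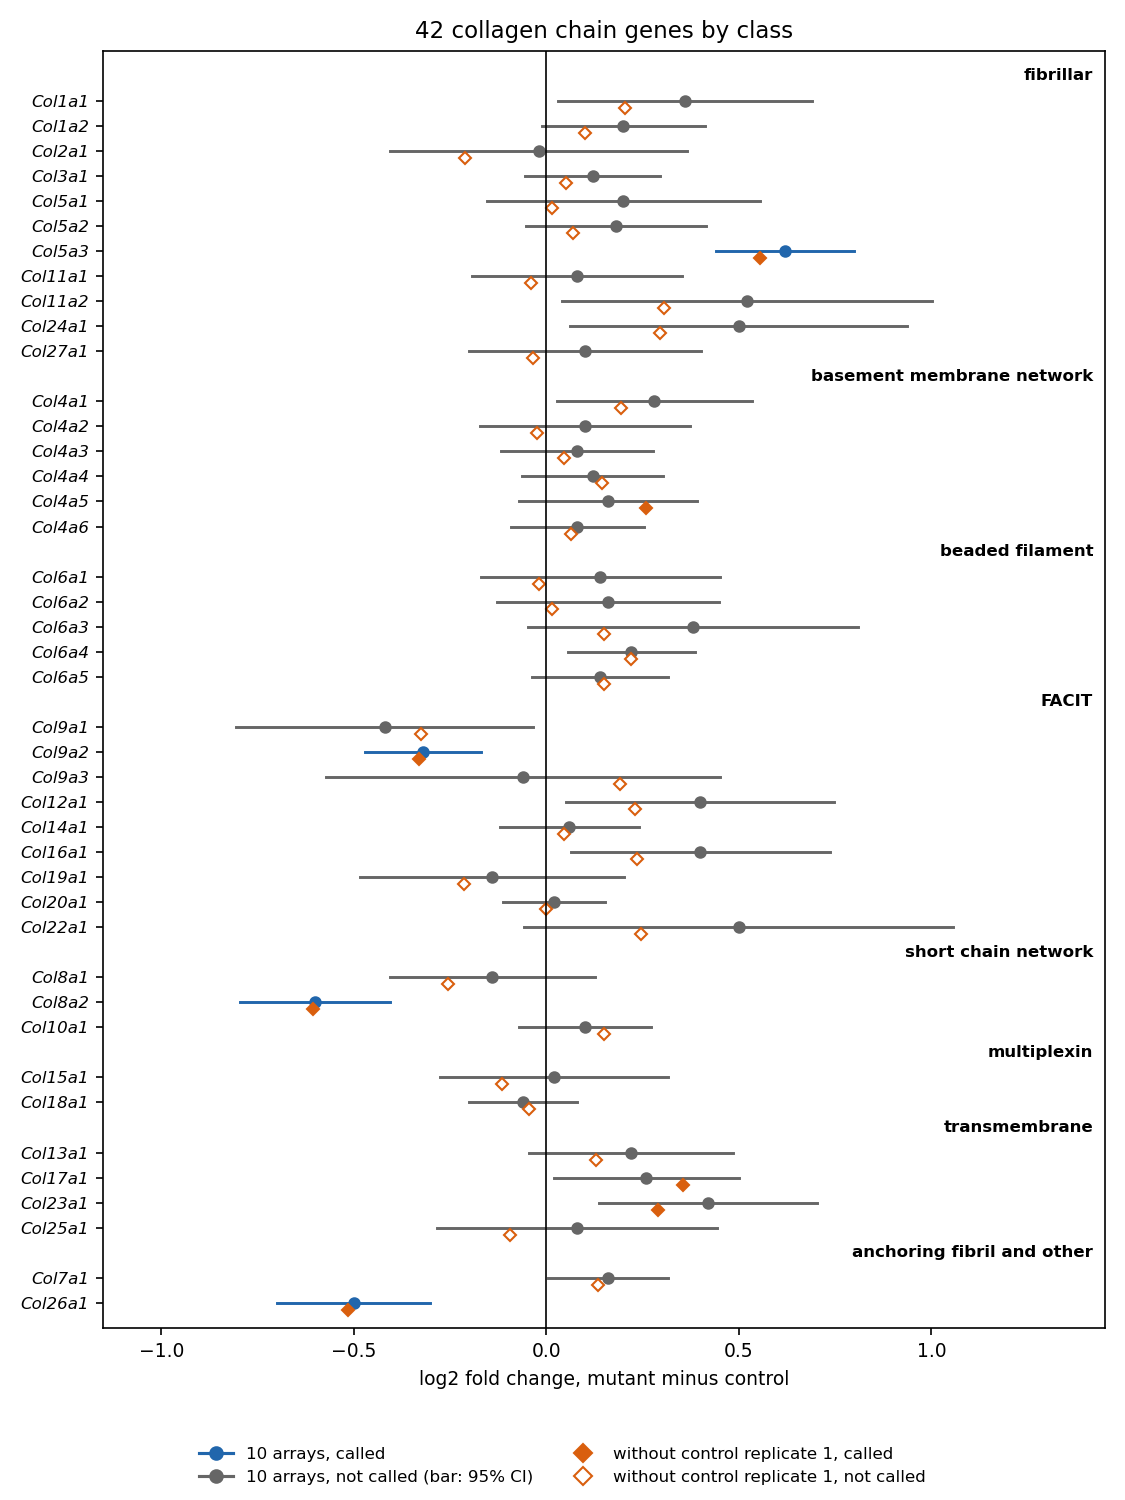
Log2 fold change (mutant minus control) of each of the 42 chains by class, with the 95% confidence interval over 10 arrays (circles, blue where called) and the value without control replicate 1 (diamonds, filled where called). Most fibrillar and beaded filament diamonds lie nearer to 0 than their circles, whereas Col5a3, Col8a2, Col9a2 and Col26a1 hardly move.

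Collagen IV chains of basement membrane had small positive differences. All 6 had a positive log2 fold change over 10 arrays, with a median of 0.11, and 5 without control replicate 1. The array medians of the class were 0.06 to 0.16 in mutants, -0.14 in control replicate 1 and -0.08 to 0.01 in the other controls, so the class medians did not overlap between groups, although no chain was called over 10 arrays. This was not particular to the class: the short chain medians did not overlap either (-0.19 to -0.02 in mutants, 0.01 to 0.31 in controls). Col4a1 and Col4a2 encode the ubiquitous collagen IV and lie next to each other on chromosome 8. Col4a1 read 12.3, 12.6, 12.3, 12 and 12.4 in mutants and 11.7, 12.1, 12.1, 12.2 and 12.1 in controls, and Col4a2 read 10.5, 10.5, 10.5, 10.3 and 10.7 against 9.9, 10.5, 10.6, 10.5 and 10.5. Without control replicate 1 their log2 fold changes were 0.20 and -0.03, and a second Col4a1 probe set gave 0.08. The neighbours gave values of opposite sign without that array, and neither was called.

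The X-linked neighbours Col4a5 and Col4a6 belong to the collagen IV of kidney, smooth muscle and some epithelia. Col4a5 read 9.1, 8.9, 9.1, 9.0 and 9.2 in mutants and 9.3, 8.7, 8.8, 8.8 and 8.9 in controls. Control replicate 1 was its highest array, and the chain rose by 0.26 only when that array was left out (95% interval 0.11 to 0.41, adjusted p = 0.0411; 0.16 and adjusted p = 0.376 with it). A second Col4a5 probe set gave 0.00 over all arrays and 0.03 without control replicate 1. Col4a6 gave 0.08 and 0.07. Col4a3 and Col4a4, neighbours on chromosome 1, stayed between 4.1 and 4.7 in every array, under the array medians of 6.4 and 6.5.

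Collagen VI and the multiplexins were not called in either set of arrays. All 5 collagen VI genes had a positive log2 fold change over 10 arrays, with a median of 0.16, and 4 without control replicate 1, with a median of 0.15. Col6a1, Col6a2 and Col6a3 form the collagen VI trimer, abundant around mesenchymal and muscle cells. Col6a3 read 12.5, 12.4, 12.5, 12.5 and 12.6 in mutants and 11.2, 12.3, 12.4, 12.4 and 12.3 in controls, with a log2 fold change of 0.38 (adjusted p = 0.256), or 0.15 without control replicate 1 (0.03 to 0.27, adjusted p = 0.111). Col6a1 and Col6a2, neighbours on chromosome 10, gave 0.14 and 0.16, or -0.02 and 0.02 without that array. The means of the mutants and of the last 4 controls were thus within 0.15 of each other for all 3 chains. Col6a4, dim at 5.0 to 5.5, gave 0.22 and was called higher with array weights, with centring and without control replicate 2. Its neighbour on chromosome 9, Col6a5, lay at 2.8 to 3.2, near the lowest value of the arrays (2.2), and gave 0.14. Col18a1, whose cleavage yields endostatin, read 9.8, 10, 9.9, 9.8 and 9.9 in mutants and 10, 9.8, 10, 10 and 9.9 in controls, and Col15a1 gave 0.02, or -0.12 without control replicate 1.

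No transmembrane chain was called over 10 arrays, and Col17a1 and Col23a1 were called without control replicate 1 and with array weights, Col23a1 also with centring. All 4 had a positive log2 fold change over 10 arrays and 3 without that array. Col17a1 encodes the hemidesmosomal collagen of basal keratinocytes. It read 9.6, 9.4, 9.6, 9.3 and 9.5 in mutants and 9.6, 9.3, 9.1, 9.0 and 9.1 in controls, with control replicate 1 the highest control. It was higher by 0.36 without that array (95% interval 0.17 to 0.54, adjusted p = 0.0245) and by 0.26 with it (adjusted p = 0.165). Krt8, a keratin of simple epithelium, was also higher without that array (0.73, limma adjusted p = 0.00492) and not called with it (0.56, adjusted p = 0.0638). Of 11 epithelial markers, 3 were called higher without that array, as were 3.8% of all genes, and none was called with it by limma. Over 10 arrays 3 had an unadjusted p under 0.05: Krt8 and, both picked with their values known, Krt18, another keratin of simple epithelium (0.48), and Trp63, a transcription factor of basal epithelium (-0.24). Array medians of the list were -0.09 to 0.22 in mutants and -0.24 to 0.01 in the other 4 controls. The part of epithelial content in the Col17a1 values was not tested.

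Col23a1 encodes another membrane collagen, and its values were 10, 9.9, 9.8, 9.6 and 9.9 in mutants and 8.9, 9.6, 9.5, 9.6 and 9.5 in controls. Mutant replicate 4 equalled the highest controls and the other mutants lay above all controls. The log2 fold change was 0.42 over 10 arrays (adjusted p = 0.0695) and 0.29 without control replicate 1 (adjusted p = 0.0424), and the SD of the controls was 0.295 with it and 0.0577 without it. The other Col23a1 probe sets gave 0.14 and 0.24 over 10 arrays, and 0.155 and 0.385 without control replicate 1. Control replicate 1 was not low on them. It read 8.9 on the first, level with the highest other controls, and 8.6 on the second, where it was the highest array. Col13a1 and Col25a1, the latter a chain of motor neuron and muscle contacts, gave 0.22 and 0.08, or 0.13 and -0.10 without control replicate 1. Col25a1 read 10.2, 10.1, 10.4, 10.3 and 10.4 in mutants and 9.5, 10.6, 10.2, 10.3 and 10.4 in controls.

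**Figure D4:**
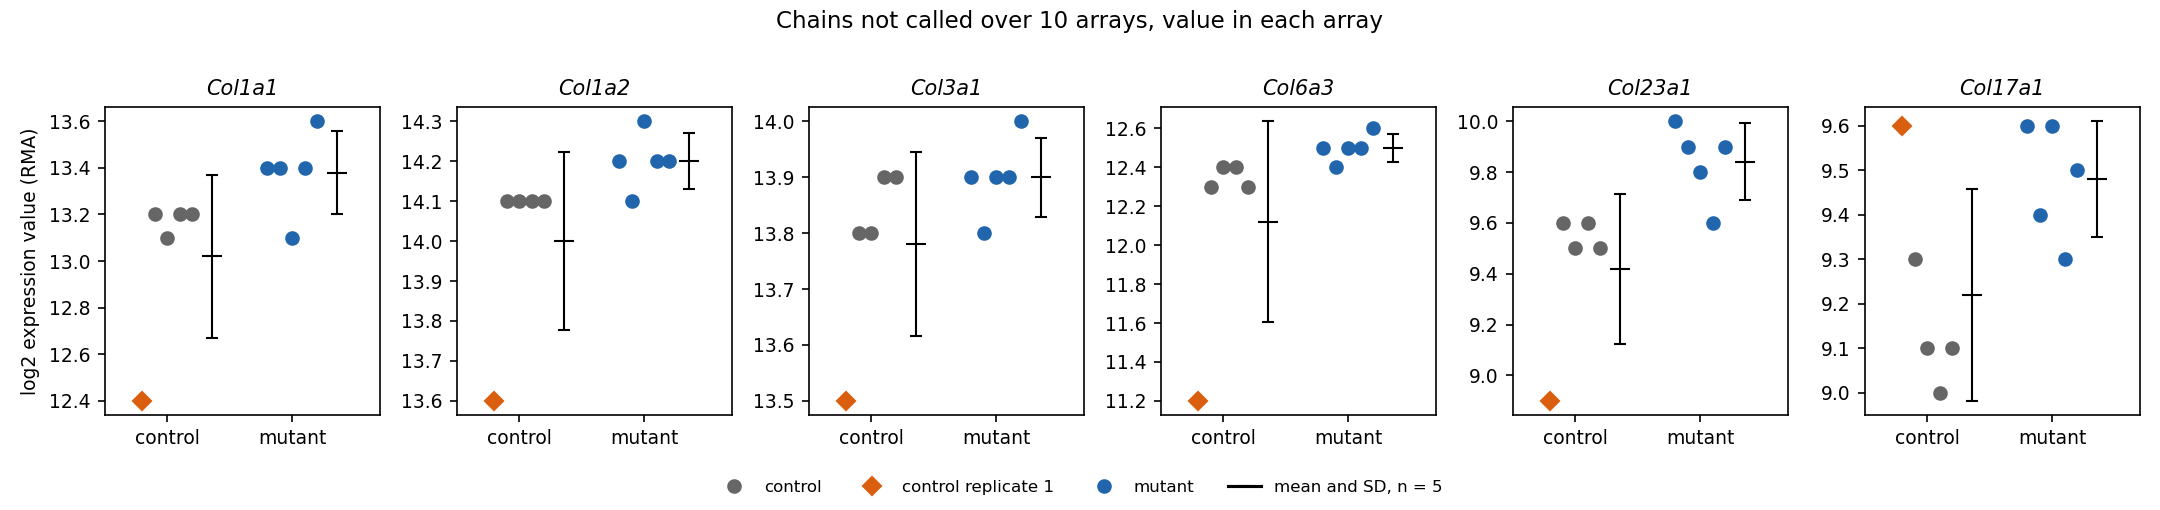
Log2 expression value of 6 chains that were not called over 10 arrays, drawn as for the called chains. Control replicate 1 (diamond) is far below the other arrays for Col1a1 (12.4), Col1a2 (13.6), Col3a1 (13.5), Col6a3 (11.2) and Col23a1 (8.9), and at the level of the mutants for Col17a1 (9.6).

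Genes that make, export and crosslink collagen were followed beside the chains. Of 19 folding and hydroxylation genes, 1 rose and 1 fell, a share near the 8.26% called over all genes. P4ha2, a catalytic subunit of prolyl 4-hydroxylase, which stabilises the triple helix, rose by 0.40 (10.50 ± 0.10 against 10.10 ± 0.17, limma adjusted p = 0.0189), and P4ha3, another such subunit, fell by 0.30 (7.78 ± 0.13 against 8.08 ± 0.13, adjusted p = 0.0425). Without control replicate 1 another subunit gene, P4ha1, chosen after its values were seen, was also higher, by 0.27 (adjusted p = 0.0129; 0.42 and adjusted p = 0.0813 with it). The collagen chaperone gene Serpinh1, also chosen after its values were seen, gave 0.10 with a 95% interval of -0.08 to 0.28.

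None of 16 export and propeptide genes and none of 5 crosslinking genes was called by limma over 10 arrays, while 3 and 1 had an unadjusted p under 0.05, as did 25.2% of all genes. Pcolce, an enhancer of procollagen C-proteinase, had the smallest p of its list (0.42, adjusted p = 0.0830) and was higher without control replicate 1 (0.28, adjusted p = 0.0424). Among crosslinking genes Loxl4, a lysyl oxidase, had the smallest p (0.42, adjusted p = 0.161). The medians of the 3 lists were 0.10, 0.07 and 0.16 over 10 arrays and 0.03, 0.01 and 0.15 without control replicate 1, in which all 3 list medians were lowest (-0.24, -0.29 and -0.37). The synthesis genes and the fibrillar chains were thus low together in that array.

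Among 10 collagen receptor and uptake genes, Ddr1, a discoidin domain receptor of epithelial cells, rose by 0.30 (11.26 ± 0.09 against 10.96 ± 0.09, limma adjusted p = 0.0189), and Itga1, the alpha 1 subunit of a collagen-binding integrin, fell by 0.48 (6.38 ± 0.18 against 6.86 ± 0.23, adjusted p = 0.0296). The other 8 were not called, and without control replicate 1 the list again gave 1 higher and 1 lower. The shares over all genes were 2.9% higher and 5.36% lower, or 3.8% and 6.08% without that array. Tendon is rich in fibrillar and FACIT collagens, and 4 of 6 tendon genes fell, with 4 called lower also without control replicate 1. Thbs4, a tendon matrix glycoprotein, fell by 1.14 (adjusted p = 0.00680), Tnmd, the membrane protein tenomodulin, by 1.36 (adjusted p = 0.0122) and Mkx, a tendon transcription factor, by 0.44 (adjusted p = 0.0118); Scx, a regulator of tendon fate chosen after its values were seen, was the other. The list median was -0.49 to -0.02 in mutants and 0.18 to 0.37 in controls, control replicate 1 included (0.33), so the groups did not overlap for this list, whereas none of Col1a1, Col1a2, Col12a1 and Col14a1 was called. Of 14 skeletal muscle genes, 9 fell over 10 arrays and 8 without control replicate 1, with medians of -1.70 and -1.73. The list's array median was 0.55 in mutant replicate 4, within the 0.34 to 1.65 of the controls, and -1.44 to -0.65 in the other mutants. The part of tendon and muscle content in the collagen values was not tested.

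**Figure D5:**
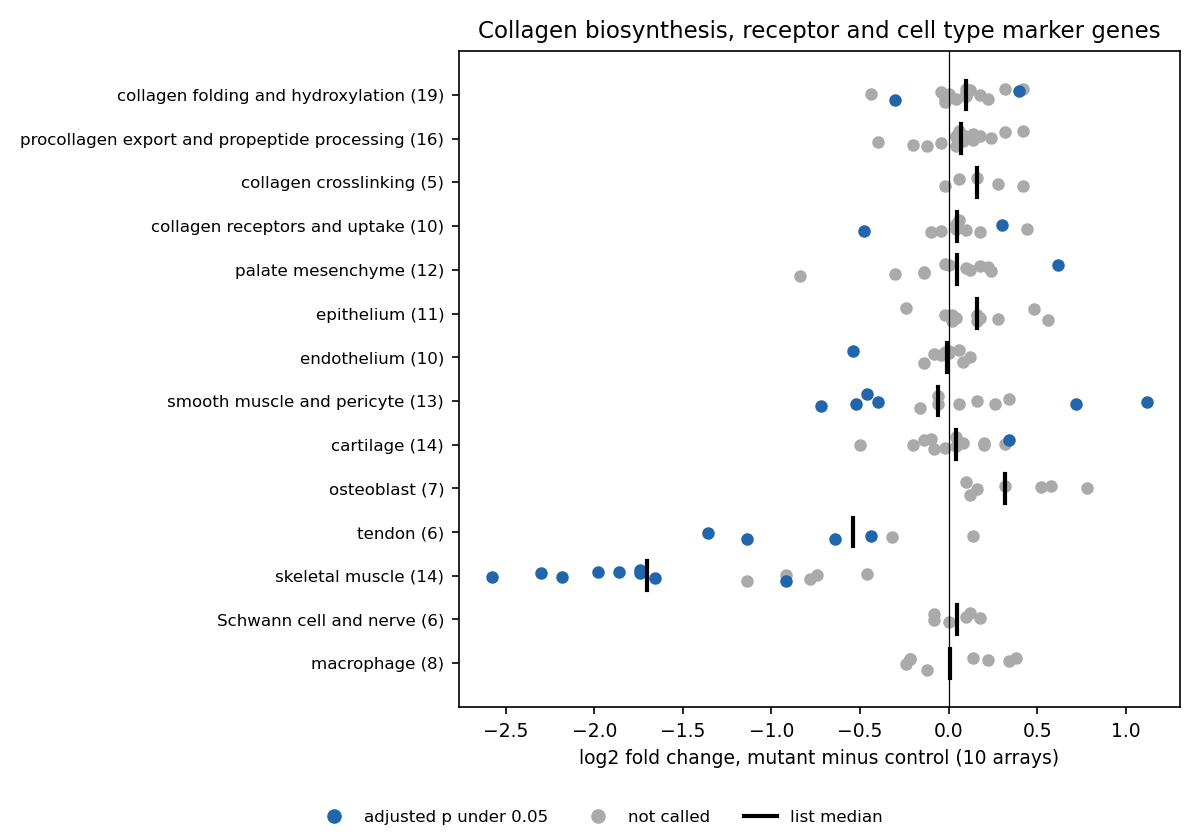
Log2 fold change (mutant minus control, 10 arrays) of collagen biosynthesis and receptor genes and of cell type markers, 1 point per gene, blue where the adjusted p was under 0.05, with the list median as a bar and the number of genes in brackets. Biosynthesis and receptor medians lie between 0.05 and 0.16, while those of tendon and skeletal muscle genes lie at -0.54 and -1.70.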

How the data were processed

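RNA of the secondary palate was hybridised to 10 Affymetrix arrays, 5 per genotype. The deposited log2 values had been summarised by RMA, per the submitters' processing notes, are rounded to 1 decimal and were used as deposited; no source used here gives software versions or a genome build for the array. The platform annotation named 1 gene for 34958 of 45101 probe sets, several for 932 and none for 9211; 34754 of the 34958 were found in RefSeq (GRCm38.p6), through which symbols were updated by Entrez ID. The probe set with the highest mean stood for each of 18194 genes.

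All genes were fitted in limma 3.58.1 (R 4.3.3; lmFit and eBayes, mutant minus control, no covariate) and called at a Benjamini-Hochberg adjusted p under 0.05; the script was tested on simulated data. Pairs of chains were compared by an exact two-sided permutation test (scipy 1.17.1) added after the data were seen. Array values were given for called chains, the brightest chain of each class and partners of called chains; from each other list, up to 3 called genes of smallest p were named, or the 1 of smallest p where none was called. Members and lists were chosen with earlier results of these data known. Alternatives averaged all probe sets of a gene, kept the brighter 60% of genes, added array weights, fitted an intensity trend robustly, repeated quantile normalization, centred arrays, or used Eif2s3y as a covariate, the replicate number as a block, or left out each array. Precision is limited by the 5 arrays per group. Col21a1, Col28a1 and Col6a6 had no probe set under the rule and were not analysed here.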

Additional observations from a re-analysis of the deposited data

Results flagged for a closer look

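Within the 5 arrays of each group, 20 of 84 sets of values (42 chains in 2 groups) held 1 array whose gap to its nearest neighbour was large for the range of the set by Dixon's criterion, which chance alone meets in about 1 in 20 groups. Control replicate 1 was that array in 18 of the 20, and always the low one. The rate of 1 in 20 holds for independent, unrounded values from a normal distribution. These values are rounded to 1 decimal and all chains share the same arrays, so the count cannot be judged against that rate.

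For fibrillar chains, control replicate 1 read 12.4 for Col1a1, 13.6 for Col1a2, 13.5 for Col3a1, 10.4 for Col5a1 and 12.3 for Col5a2. It read 10.4 for Col11a1, 7.2 for Col24a1 and 8.7 for Col27a1. The other controls of these genes were far closer to each other, such as 13.1 to 13.2 for Col1a1 and 11.3 to 11.4 for Col5a1.

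For basement membrane and multiplexin chains the same array read 11.7 for Col4a1, 9.9 for Col4a2 and 7.2 for Col15a1. For collagen VI it read 10.9 for Col6a1, 11.4 for Col6a2 and 11.2 for Col6a3, the last against 12.3 to 12.4 in the other controls. For FACIT and transmembrane chains it read 9.4 for Col12a1, 9.8 for Col16a1, 7.7 for Col22a1 and 8.9 for Col23a1.

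The remaining cases were Col4a6 in mutant replicate 3 (6.4, against 6.7 in the other mutants) and Col6a1 in mutant replicate 4 (11.6, against 11.7), the second a single step of the rounded values.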

How the results depend on the processing

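Over 18 alternatives the collagen chains kept their side of the threshold in 733 of 749 cases, gained a call in 11 and lost one in 5. The sign turned in 24 cases, in 10 chains, of which 0 were called over 10 arrays; 7 of the chains turned without control replicate 1. The chains called numbered 7 with array weights and 3 to 7 with each array left out; those higher numbered 0 among the brighter 60% of genes, 3 with centring, 4 with array weights, 2 with Eif2s3y as a covariate and 1 to 4 with each array left out (4 without control replicate 1, 2 without control replicate 2). Over all genes, the calls ranged from 643 to 1798 with each array left out, the higher ones from 186 to 691 and the lower ones from 457 to 1107. With centring, 1283 were higher and 474 lower, and with array weights 907 were higher. Class medians moved to 0.19 with centring for basement membrane chains, to 0.11 with the mean of all probe sets and 0.10 with centring for FACIT chains, and for the anchoring fibril and other chains to -0.085 and -0.09 in the same order. The short chain median was -0.29 with the mean of all probe sets, -0.37 among the brighter 60% and -0.26 to -0.08 with each array left out. Centring subtracts the same amount from all genes of an array, so it shifted every log2 fold change alike and moved the median of all genes to 0.08. The cause of the other differences was not tested.

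Same-numbered mutant and control arrays share only a number: the correlations of their deviations were 0.0289, 0.057, -0.0526, -0.0994 and 0.105, and 0 of 5 mutant arrays correlated best with its own number. With the replicate number as a block, 532 genes were called, 167 higher and 365 lower, and Col9a2 lost its call. The 6 chains under the array medians lie where arrays resolve least.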

Other observations

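Genes of contractile cells changed in both directions. Of 13 smooth muscle and pericyte genes, 2 rose and 4 fell by limma, with the same counts without control replicate 1. The shares over all genes were 2.9% higher and 5.36% lower. Ndufa4l2, a pericyte marker, rose by 1.12 on the log2 scale (10.46 ± 0.22 against 9.34 ± 0.29, SD, n = 5 each, limma adjusted p = 0.00152), and Mylk, the myosin light chain kinase gene, rose by 0.72 (adjusted p = 0.00907). The myosin heavy chain gene of smooth muscle, Myh11, fell by 0.52 (adjusted p = 0.00662). Among skeletal muscle genes, Myh7, a slow myosin, fell by 1.74, Myf5, a myogenic factor, fell by 1.86 and Actn2, a Z-disc protein gene, fell by 1.98 (limma adjusted p = 0.000851, 0.00258 and 0.0131).

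Of 12 palate mesenchyme genes, 1 rose (1 higher and 1 lower without control replicate 1): Tbx22, a transcription factor gene of the palate, by 0.62 (limma adjusted p = 0.0183). That is near the 8.26% called over all genes. None of 7 osteoblast, 6 Schwann cell and nerve and 8 macrophage genes was called by limma over 10 arrays, while 3, 0 and 2 had an unadjusted p under 0.05; without control replicate 1, 1 of them, Cx3cr1, was called higher (0.26). The smallest p of each list belonged to Ibsp, a bone matrix sialoprotein gene (0.52, adjusted p = 0.105), Erbb3, a neuregulin receptor (-0.08, adjusted p = 0.605), and Cx3cr1, a chemokine receptor (0.34, adjusted p = 0.0528).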
